A study of Mus musculus with 3 samples.

Results

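Cycling basal keratinocytes were the cells of the epidermal basal layer that carried transcripts of mitosis and its preparation. In 3 single-cell libraries of 25062 barcodes, 366 cells met the definition of a basal keratinocyte and 174 of these were cycling. A basal keratinocyte was a barcode with at least 500 genes and at most 10% mitochondrial counts in which Krt14 and Krt5, the keratin pair of the basal layer, made up at least 0.3% of its unique molecular identifiers (UMIs, counts of single captured transcripts). Krt14 and Krt5 also had to exceed Krt1, Krt10, Krt2 and Lor, genes of the layers above. Cells with 1% or more Cd74, an antigen-presentation gene, or with 10 or more UMIs of the melanocyte genes Pmel, Dct and Mlana were left out. A basal cell was called cycling when Top2a, Mki67, Birc5, Ube2c, Ccnb2 and Cenpf together reached 200 CPM (counts scaled to 1000000 UMIs per cell), a sum called the score here. These measured values chose the cells, so the comparison of cycling with non-cycling cells is a description with no test.

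The cells came from ear epidermis of male CD1 mice, an outbred stock, from which Langerhans cells (LCs), the antigen-presenting cells of the epidermis, had been enriched on magnetic beads. Keratinocytes were therefore the few that came through that enrichment, and shares of all cells say nothing of the tissue. The untreated library came from mice that received the depilatory cream Nair alone. The croton oil library came from ears treated with this irritant oil in acetone and olive oil, and the microneedle library from ears punched several times with a microneedle array. Treated ears were taken 48 hours after the first treatment. Each condition was 1 library, the number of animals behind it is not given in the sources used here, and no comparison between libraries has a replicate.

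The basal layer rests on the basement membrane and renews the epidermis by division of its cells, whose daughters leave the layer and differentiate. A dividing cell first switches on the enzymes of DNA synthesis in S phase, many of them targets of E2F factors, and then the genes of G2 and mitosis, which are held down in resting cells by a repressor complex that binds the cell cycle homology region (CHR, TTTGAA or TTCGAA) of their promoters. After wounding or irritation, keratinocytes also switch on the keratins Krt6a, Krt6b, Krt16 and Krt17.

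The promoter sequences of 6 of the genes the results turn on are shown because they carry the CHR motif and the CCAAT box, which is bound by NF-Y. Sequences are from RefSeq (GRCm38.p6), 150 bases each, 5′ to 3′ on the gene's strand, from 100 bases before the transcription start to 50 after. Capitals mark TTTGAA or TTCGAA and the box CCAAT on either strand, so that TTCAAA stands for TTTGAA and ATTGG for the box on the opposite strand.
Top2a, chr11:99024140-99024289, minus strand: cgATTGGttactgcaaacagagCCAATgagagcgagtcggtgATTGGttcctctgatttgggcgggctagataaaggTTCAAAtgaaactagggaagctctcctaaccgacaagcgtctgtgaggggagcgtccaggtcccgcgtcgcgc
Ube2c, chr2:164769829-164769978, plus strand: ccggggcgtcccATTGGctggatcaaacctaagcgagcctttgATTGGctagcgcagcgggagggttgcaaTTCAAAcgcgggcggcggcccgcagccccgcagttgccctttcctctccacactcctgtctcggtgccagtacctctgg
Ccnb2, chr9:70421505-70421654, minus strand: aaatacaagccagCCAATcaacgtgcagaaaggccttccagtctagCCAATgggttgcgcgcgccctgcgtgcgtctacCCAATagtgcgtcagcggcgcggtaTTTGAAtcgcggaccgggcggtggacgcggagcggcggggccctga
Cenpf, chr1:189688037-189688186, minus strand: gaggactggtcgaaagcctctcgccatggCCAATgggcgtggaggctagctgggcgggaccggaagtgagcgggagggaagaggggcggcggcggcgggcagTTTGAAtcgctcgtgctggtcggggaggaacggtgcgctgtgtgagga
Cdc20, chr4:118437294-118437443, minus strand: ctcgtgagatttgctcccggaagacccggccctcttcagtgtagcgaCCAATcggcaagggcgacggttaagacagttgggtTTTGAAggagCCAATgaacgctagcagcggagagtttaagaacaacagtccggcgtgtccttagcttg
Cdk1, chr10:69352863-69353012, minus strand: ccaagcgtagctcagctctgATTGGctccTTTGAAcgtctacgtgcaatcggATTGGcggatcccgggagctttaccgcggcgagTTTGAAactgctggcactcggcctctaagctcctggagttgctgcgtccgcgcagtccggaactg
In the whole window of 300 bases (250 before the start to 50 after), 5 of the 6 score genes held a CHR motif and a CCAAT box, and Birc5 held neither. Of the G2/M list described below, 43 of the genes had 49 promoter entries, of which 75.5% held TTTGAA or TTCGAA, against 19.2% of all 32851 promoter entries. CCAAT was found in 75.5% of those entries and in 37.4% of all, and both motifs in 61.2% and in 7.52%. The S phase list held the CHR motif in 18.4% and CCAAT in 65.8% of 38 entries. The E2F motifs (TTTGGCGC or TTTCGCGC or TTTCCCGC) were found in 36.8% of the S phase entries, 6.12% of the G2/M entries and 1.84% of all. Motifs were searched on both strands and may overlap each other. Such a match is a description of letters, not a binding site.

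Basal cells numbered 96 of 9876 barcodes in the untreated library, 203 of 8241 in the croton oil library and 67 of 6945 in the microneedle library. In the untreated library 2 basal cells were cycling, a share of 2.08% with an exact 95% binomial interval of 0.253 to 7.32%. The croton oil library had 144, 70.9% (64.2 to 77.1%). The microneedle library had 28, 41.8% (29.8 to 54.5%). The intervals of the 3 libraries did not overlap, but such intervals cover counting error only and not the differences between animals or preparations. Cells were deeply sequenced, with a median of 58342 UMIs in cycling and 42784 in non-cycling cells of the croton oil library, 52986 and 27371 in the microneedle library, and 29394.5 in the non-cycling untreated cells. After each cell was thinned to 10000 UMIs, which left out 5 untreated, 23 croton oil and 11 microneedle cells below that depth, the shares were 6.59%, 71.7% and 44.6%. A single UMI suffices to pass 200 CPM in a cell with under 5000 UMIs, and 8 of the 144 and 5 of the 28 cycling cells were that shallow.

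The basal cells were not free of Langerhans cell transcripts, and the untreated library stood apart in this. Cells were divided at a Cd74 share of 0.1% of UMIs, a value chosen after the data were seen, near which few cells lay. The upper range held 83 of 96 untreated, 76 of 203 croton oil and 26 of 67 microneedle basal cells. Those cells also carried the LC genes H2-Aa and Cd207, the latter at 200 CPM in the untreated, 48.9 CPM in the croton oil and 172 CPM in the microneedle library, against 3.80, 3.35 and 5.22 CPM in the basal cells of the lower range. Whether these were pairs of cells in 1 droplet was not tested, since the doublet caller's own threshold marked 1 cell in all 3 libraries. In the lower range, 0 of 13 untreated basal cells were cycling, for which 3 counts would be a share of 23.1%, and the exact interval reaches 24.7%. There the share was 72.4% (63.8 to 80.0%, 92 of 127 cells) in the croton oil library and 56.1% (39.7 to 71.5%, 23 of 41) in the microneedle library. In the upper range it was 2.41% (0.293 to 8.43%, 2 of 83), 68.4% (56.7 to 78.6%, 52 of 76) and 19.2% (6.55 to 39.4%, 5 of 26), where the untreated and microneedle intervals overlapped. Both untreated cycling cells were thus in the upper range. In the lower range the intervals of the treatments overlapped each other, and both lay above these untreated limits. The libraries shared 32, 17 and 13 barcodes in pairs, and no basal cell was among them.

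**Figure D1:**
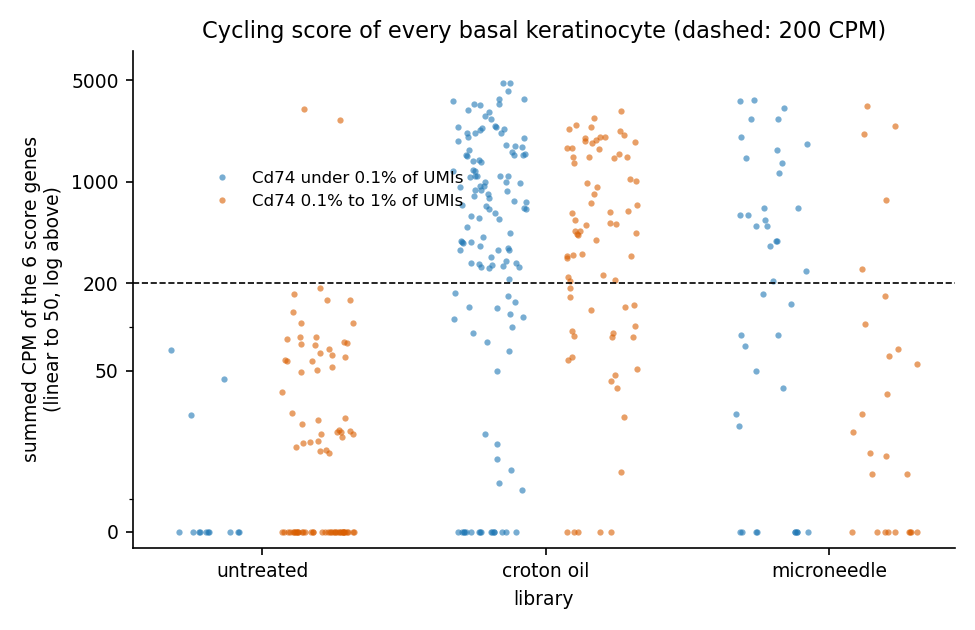
Each point is 1 basal keratinocyte, placed by library (x axis) and by its summed CPM of the 6 score genes (y axis, linear to 50 and logarithmic above), coloured by its Cd74 share. The dashed line is the threshold of 200 CPM, and the untreated library has 2 points above it, both with Cd74 above 0.1%.

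Around the threshold the scores ran on without a gap in the treated libraries. The croton oil cells just inside stood at 206, 211 and 215 CPM and those just outside at 163, 172 and 186 CPM. In the microneedle library the nearest inside were 205, 241 and 251 CPM and the nearest outside 144, 163 and 169 CPM. The 2 untreated cycling cells scored 2653 and 3160 CPM, and the highest of the other untreated cells 185 CPM. The median score of cycling cells was 995 CPM in the croton oil and 949 CPM in the microneedle library, and the highest scores were 4825 and 3638 CPM.

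The score genes were at these levels in the summed cells. Top2a, which untangles DNA, was at 375 CPM in cycling and 24.6 CPM in non-cycling cells of the croton oil library, and at 400 and 12.8 CPM in the microneedle library. Mki67, the proliferation antigen that coats mitotic chromosomes, was at 229 and 13.8 CPM and at 336 and 14.4 CPM. Ube2c, a ubiquitin-conjugating enzyme of the anaphase-promoting complex, was at 299 and 11.3 CPM and at 244 and 1.60 CPM. Cenpf, a kinetochore protein, was at 195 and 2.09 CPM and at 264 CPM and 0. These 4 genes, with Birc5 and Ccnb2, defined the cells, and the contrast between the columns is built in.

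Among the other genes, those with at least 50 CPM and 20 UMIs in either group were compared, with 5 CPM added to each level before the log2 ratio, which understates the change of low genes. In the croton oil library 90 of 3905 genes were at least 2-fold higher in cycling cells (2.3%) and 93 at least 2-fold lower (2.38%). After microneedles these were 304 (6.82%) and 273 (6.13%) of 4456. In both libraries 79 of the 3668 genes compared in both were 2-fold higher (2.15%) and 25 were 2-fold lower (0.682%). Of the 79, 33 belonged to the G2/M list, 8 to the S phase list and 38 to neither. Without the LC-bearing cells, 64 of the 79 and 18 of the 25 were still at least 2-fold apart in both libraries. Recounted in those cells alone, 110 genes were 2-fold higher (2.86%) and 147 lower (3.82%) after croton oil, 551 (12.8%) and 428 (9.93%) after microneedles, and 77 (2.19%) and 38 (1.08%) in both. Examples outside both lists, chosen after their values were seen, were the mitotic kinesins Kif15 (log2 changes of 3.29 and 3.23) and Kif4 (2.33 and 2.37), the condensin subunit Smc2 (2.48 and 3.28) and the PCNA-binding factor Pclaf (2.52 and 3.69).

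The mitotic regulators formed the upper end in both libraries. Cdc20, the activator of the anaphase-promoting complex (chr4:118290098-118294610, GRCm39), was at 183 CPM (exact 95% Poisson interval 174 to 192) in cycling and 5.01 CPM (2.59 to 8.75) in non-cycling cells of the croton oil library. It was at 144 CPM (125 to 165) and 3.99 CPM (1.30 to 9.31) in the microneedle library. Cdk1, the kinase that drives entry into mitosis (chr10:69170976-69236595), was at 178 and 7.93 CPM in the croton oil library and at 156 CPM and 0.798 CPM in the microneedle library. In the remaining cells of the libraries, mostly LCs, Cdc20 was at 2.41 CPM after croton oil and 1.93 CPM after microneedles. Plk1, a kinase of spindle assembly, was at 62.1 CPM in the 144 cycling cells and 67.0 CPM in the 28, and had no UMI in the non-cycling cells of either library. Taking 3 counts per group as the floor, it was at least 49.6-fold higher after croton oil and at least 28.0-fold higher after microneedles.

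The cyclins followed the same order. Ccna2, the cyclin of S and G2, was at 98.8 CPM in cycling against 3.34 CPM in non-cycling croton oil cells, and at 95.8 CPM against 0 in the microneedle library, at least 40.0-fold higher there. Ccnb1, the mitotic partner of Cdk1, was at 134 against 6.26 CPM and at 104 against 0.798 CPM. The motor and kinetochore genes Cenpe, Knl1 and Kif11, the hyaluronan receptor and spindle protein Hmmr, the cytokinesis regulators Racgap1 and Aurkb and the spindle protein Nusap1 completed the 12 highest, with log2 changes from 3.25 to 4.79 over the 12 genes and both libraries. Leaving out the LC-bearing cells kept all 12 at least 2-fold higher in both libraries, the lowest being 2.59 for Kif11 after croton oil. The top cell held 25.8% of the Plk1 UMIs of microneedle cycling cells and at most 24.3% for the other 11 genes there.

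The G2/M list as a whole lay at 5987 summed CPM in cycling and 1203 CPM in non-cycling cells after croton oil, and at 6084 and 1102 CPM after microneedles. Of its 50 genes 35 could be compared in each library, and 34 after croton oil and 33 after microneedles were at least 2-fold higher, with none 2-fold lower. Their median log2 changes were 2.43 and 2.98, where all compared genes had medians of 0.04 and 0.02, and the medians were the same with members at 0 set to their bound. Ckap5, a microtubule polymerase, was the compared member short of 2-fold in both libraries, at 0.66 and 0.56. Only 7 members reached the minimum for comparison in the non-cycling cells of either treated library. Most were therefore compared for their level in cycling cells, and such a member cannot come out lower there. The counts and medians of this list are thus partly set by that minimum, while the summed levels do not depend on it.

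The S phase list was also higher, by less. It summed to 2602 CPM in cycling and 1386 CPM in non-cycling cells after croton oil, and to 2669 and 881 CPM after microneedles. In the croton oil library 8 of 20 compared members were at least 2-fold higher, and in the microneedle library 20 of 23, with medians of 0.86 and 1.69. Only 6 members reached the minimum for comparison in the non-cycling cells of either treated library. Most were therefore compared for their level in cycling cells, so these counts and medians are also partly set by that minimum. The summed levels differed between the libraries in the non-cycling cells more than in the cycling ones. The cycling cells of both had passed the same score, so nothing is read from their likeness. Rrm2, the small subunit of ribonucleotide reductase, was at 142 CPM and 106 CPM in cycling cells, but at 45.5 CPM (37.4 to 54.9) in non-cycling croton oil cells and 7.98 CPM (3.83 to 14.7) in non-cycling microneedle cells. Mcm3, a subunit of the replicative helicase, was at 65.3 and 61.2 CPM in cycling cells and at 34.6 and 9.58 CPM in non-cycling cells. Rrm2 and Mcm3 were at 2.44 and 12.2 CPM in the remaining cells of the croton oil library and at 5.51 and 2.57 CPM in untreated non-cycling basal cells.

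The score therefore left cells with S phase transcripts on the non-cycling side. Among cells with at least 10000 UMIs, 9 of 50 non-cycling croton oil cells had an S phase sum at or above 2383 CPM, the median of cycling cells there. In the microneedle library 2 of 33 did so against its median of 1935 CPM. Along the score the lists parted. In the croton oil library the G2/M list was at 1045 CPM in cells scoring under 50, 1303 from 50 to 100, 1346 from 100 to 200, 2323 from 200 to 400, 4176 from 400 to 1000 and 7888 CPM above. The S phase list went from 1306 to 1349, 1517, 2430, 2580 and 2660 CPM over the same ranges, with its main step at the threshold and little change beyond. In the microneedle library the G2/M list stood at 1064, 1181 and 1246 CPM below the threshold and at 3312, 3638 and 8477 CPM above it. The S phase list there went from 707 to 1012 and 1869 CPM below the threshold, and to 2402, 3467 and 2562 CPM above. Single genes did not all follow the list below the threshold, as Rrm2 was at 6.48 CPM under 50, 12.2 from 50 to 200 (6.6 without the top cell) and 143 CPM from 200 to 400. These ranges held 29, 6, 4, 6, 8 and 14 cells. Since the score genes are themselves mostly of G2 and mitosis, the rise of the G2/M list along the score is built in.

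**Figure D2:**
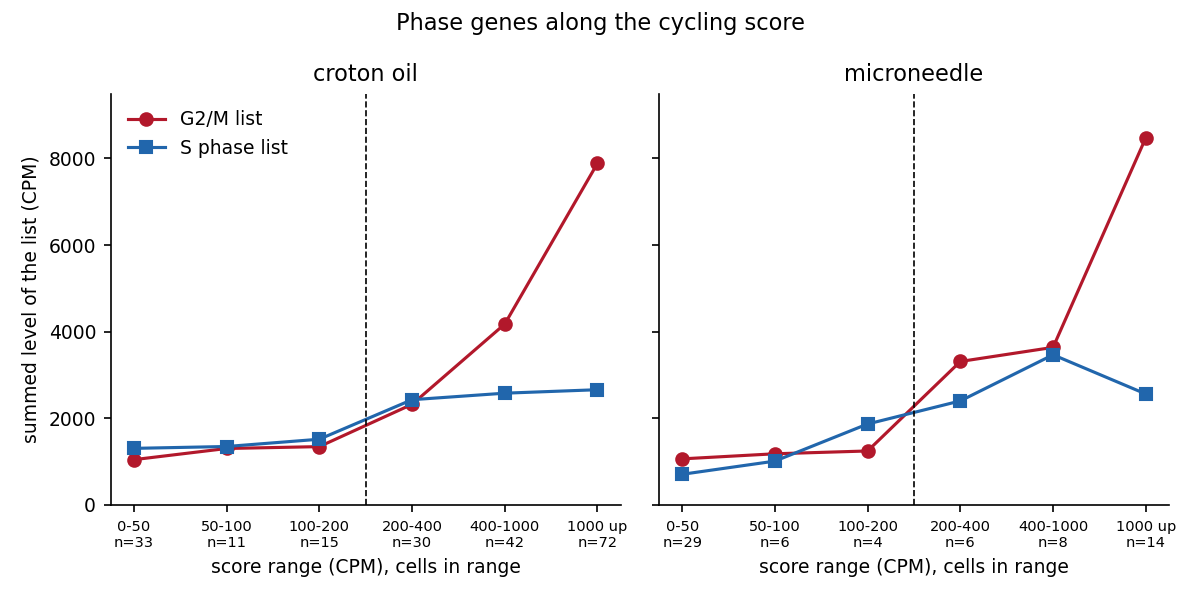
Summed CPM (y axis) of the G2/M list (red circles) and S phase list (blue squares) in basal cells grouped by score (x axis, with the number of cells), for the croton oil (left) and microneedle (right) libraries. The dashed line is the threshold, and the G2/M list reaches 7888 and 8477 CPM in the highest range while the S phase list stays at 2660 and 2562 CPM.

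Histones and chromatin proteins, listed together with tubulins, were higher in the cycling cells. Of 18 members, 6 of 12 compared were at least 2-fold higher after croton oil and 11 of 13 after microneedles, with medians of 1.14 and 1.45. These counts were 10 of 12 and 10 of 13 in the lower Cd74 range. H1f5, a replication-dependent linker histone, was at 128 against 9.60 CPM after croton oil and at 116 against 3.99 CPM after microneedles, where 1 cell held 60.9% of its UMIs. Its log2 change there was 3.75, and 2.68 without the top cell of each group. H2ax, the histone variant marked at DNA breaks, had log2 changes of 2.83 and 2.99, and the tubulin gene Tubb5 1.89 and 2.73.

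Genes of ribosome assembly were shifted less but evenly. All 13 compared members of a list of 16 were above 0 in both libraries, with medians of 0.65 and 0.79, although 0 reached 2-fold after croton oil and 2 after microneedles. Without the LC-bearing cells 1 and 9 of 13 reached 2-fold, with medians of 0.60 and 1.07. Ncl, the nucleolar protein nucleolin, was at 1674 CPM (1646 to 1702) in cycling and 878 CPM (841 to 916) in non-cycling croton oil cells, and at 1503 and 858 CPM in the microneedle library. Its level in untreated non-cycling basal cells was 560 CPM. Among cells of the lower Cd74 range with at least 10000 UMIs, however, the Ncl median was 797 CPM in the untreated library, against 558 and 699 CPM in non-cycling croton oil and microneedle cells. Npm1, the nucleolar chaperone nucleophosmin, stood at 2297 and 1517 CPM after croton oil, 1655 and 955 CPM after microneedles and 722 CPM in the untreated cells. In single cells with at least 10000 UMIs the Npm1 median was 2134 CPM in cycling and 1262 CPM in non-cycling cells after croton oil, with interquartile ranges of 1572 to 2702 CPM and 933 to 1838 CPM that overlapped. Both genes were under 500 CPM in the remaining cells of every library.

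Cell cycle regulators upstream of S phase had no common direction. Of 24 such genes 14 were compared in each library, none reached 2-fold higher, none reached 2-fold lower after croton oil and 2 did after microneedles. The median after microneedles was -0.34. In the lower Cd74 range 2 of 13 were higher and 4 lower there, with a median of -0.47. The cyclin D gene Ccnd1 had log2 changes of 0.54 and 0.72, and the kinase gene Cdk4 0.51 and 0.93. Cdkn1a, which encodes the inhibitor p21, had -0.05 and -0.29. Ccnd2 and Ccnd3 were lower after microneedles, at -2.09 and -1.39, and at -0.72 and 0.03 after croton oil. The latter genes are also expressed by immune cells, and whether LC transcripts bear on these values was not tested.

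**Figure D3:**
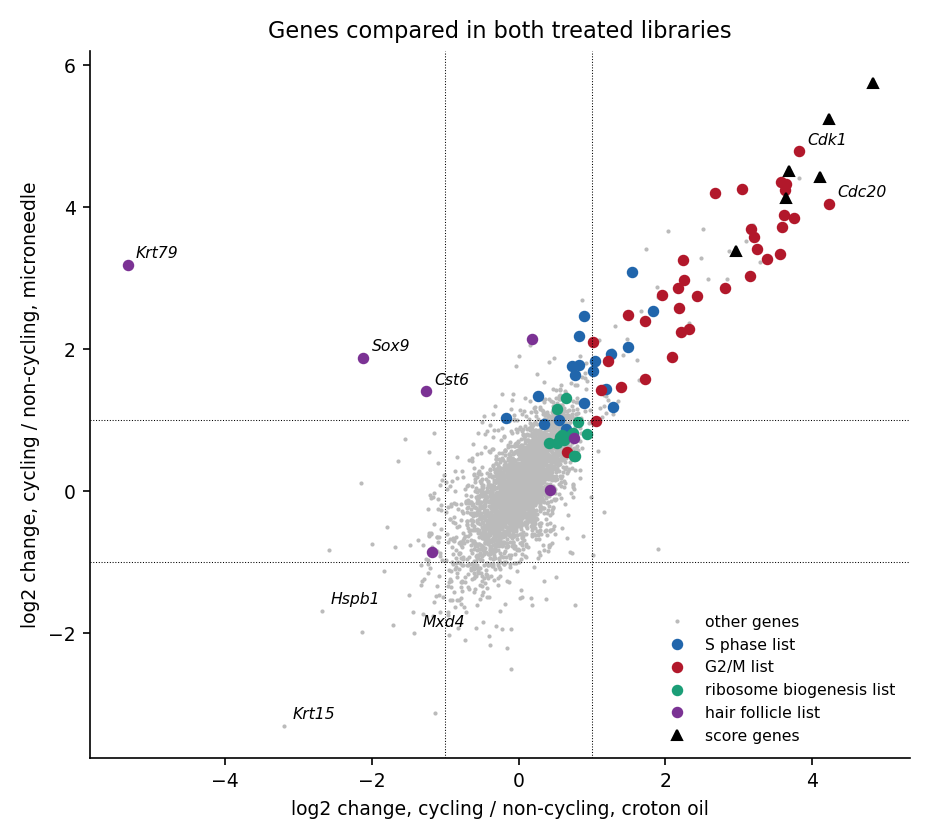
Each point is a gene compared in both treated libraries, with its log2 change between cycling and non-cycling basal cells after croton oil (x axis) and after microneedles (y axis). Dotted lines mark 2-fold, triangles are the score genes, and the G2/M list (red) lies at the upper right with Krt15 alone at the far lower left at -3.19 and -3.30.

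Most basal genes differed little between the states, and Krt15 stood apart. Krt14 and Krt5 chose the cells in both states, so their levels are a description. Krt14 was at 18105 CPM in cycling and 19360 CPM in non-cycling cells after croton oil, and at 18783 and 18823 CPM after microneedles. Krt5 had -0.17 and -0.14, and the hemidesmosome genes Col17a1 and Itga6 lay between -0.27 and 0.20. Of the 20 genes of the basal list, 18 and 19 were compared, 2 in each library were 2-fold lower, none was 2-fold higher, and the medians were -0.13 and -0.20. Besides Krt15 these were Thbs1, which encodes thrombospondin 1, after croton oil (-1.08) and Dst, a hemidesmosome linker, after microneedles (-1.04). In the lower Cd74 range 1 and 4 of 19 were lower, with medians of -0.01 and -0.39. Krt15, the keratin of quiescent basal and hair follicle cells (chr11:100022584-100026775), was at 138 CPM (131 to 147) in cycling and 1305 CPM (1259 to 1351) in non-cycling croton oil cells. After microneedles it was at 35.3 CPM (26.1 to 46.6) and 392 CPM (358 to 428), and in untreated non-cycling cells at 1822 CPM.

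Krt15 differed widely between cells. In non-cycling croton oil cells 1 cell held 43.4% of its UMIs, and the log2 change was -2.62 without the top cell of each group and -3.33 without the LC-bearing cells, against -3.19 with all. After microneedles those values were -3.55, -4.23 and -3.30. The median cell of at least 10000 UMIs had 1303 CPM in the untreated, 111 and 110 CPM in the non-cycling croton oil and microneedle cells, and 0 in the cycling cells of both. With Cd74 under 0.1% these Krt15 medians were 1135 CPM in the untreated, 274 and 0 in the non-cycling and 22.9 CPM and 0 in the cycling cells, so that after microneedles the medians of both states were 0. Krt15 was at 4.87 CPM or less in the remaining cells of the treated libraries. By score range the croton oil level was 1889 CPM under 50, 839 from 50 to 200, 198 from 200 to 400, 120 from 400 to 1000 and 130 CPM above, but without the top cell of each range these were 644, 579, 122, 83.8 and 95.5 CPM. Most of the gap between the lowest 2 ranges thus rested on 1 cell, and the gap at the threshold remained.

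The other genes lower in cycling cells of both libraries were a mixed group. Hspb1, a small heat shock protein of differentiating keratinocytes, was at 26.5 against 196 CPM after croton oil and at 31.7 against 113 CPM after microneedles. Mxd4, which antagonises Myc at shared DNA sites, was at 21.9 against 67.2 CPM and at 23.8 against 110 CPM, and was spread over many cells, the top cell holding 5.49 to 18.2% of the UMIs in these 4 groups. Nckap5 (17.7 against 69.3 CPM and 23.8 against 101 CPM) and the potassium channel gene Kcnh1 (41.0 against 108 CPM and 15.1 against 61.5 CPM) were at 1.31 CPM or less in the remaining cells. Hpgd, which inactivates prostaglandins, Abca1, a cholesterol exporter, and Elovl4, an elongase of very long fatty acids, had log2 changes from -1.27 to -1.70.

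Several of these had sums that rest on few cells, or changed when the LC-bearing cells were left out. For Efnb2, an ephrin, 1 cell held 72.6% of the UMIs of non-cycling microneedle cells, and the log2 change of -1.24 became 0.15 without the top cell of each group. Without those top cells Hpgd and Elovl4 were at -0.83 each after croton oil. Soat1, Elmo1 and Cacnb2 had higher levels in the remaining cells, mostly LCs, than in non-cycling basal cells of both treated libraries (Cacnb2 at 814 against 192 CPM after croton oil). Without the LC-bearing cells Cacnb2 was at 0.70 after croton oil, and Elmo1 at -0.15 and Soat1 at -0.81 after microneedles. Of the 25 genes lower in both, 8 were of this kind and 17 were not. Of the 17, 16 were still 2-fold lower in both libraries without the LC-bearing cells, and of the 8, 2 were.

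**Figure D4:**
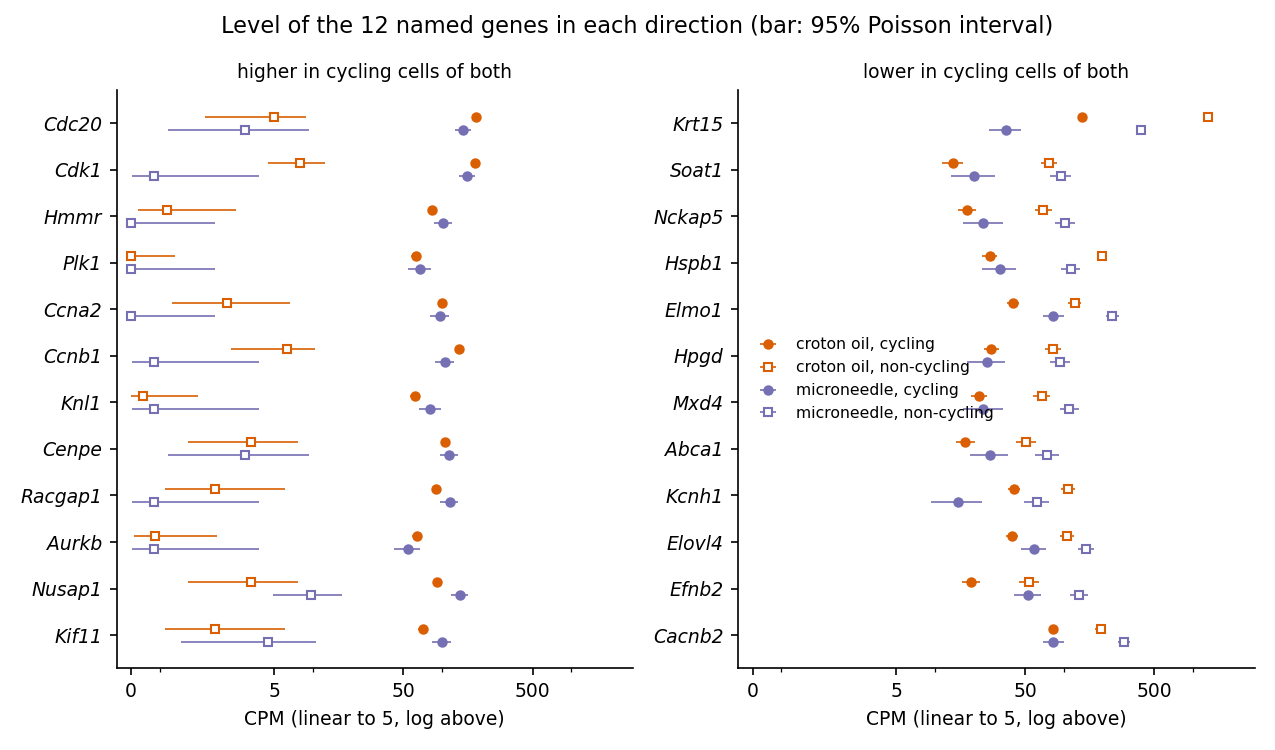
Levels in CPM (x axis, linear to 5 and logarithmic above) of the 12 genes highest (left) and the 12 lowest (right) in cycling cells of both libraries, in cycling (filled circles) and non-cycling cells (open squares) after croton oil (orange) and microneedles (violet). Bars are exact 95% Poisson intervals, and the cycling levels of Cdc20, 183 and 144 CPM, stand apart from the non-cycling ones of 5.01 and 3.99 CPM.

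Differentiation and injury genes were mixed. The suprabasal list summed to 15133 CPM in cycling and 17428 CPM in non-cycling cells after croton oil and to 11160 and 9850 CPM after microneedles, and the list of injury keratins and alarmins to 7725 and 7365 CPM and to 10101 and 9708 CPM. In the suprabasal list 1 of 10 compared genes was 2-fold lower after croton oil, and 4 lower and 1 higher of 9 after microneedles, with medians of -0.21 and -0.87. In the lower Cd74 range 2 of 11 and 6 of 12 were lower, with medians of -0.13 and -1.03. Krt1, a suprabasal keratin that the definition of basal cells also used, had lower sums in cycling cells of both, at 621 against 1384 CPM and 91.4 against 279 CPM. The median cell of at least 10000 UMIs had 90.0 against 82.0 CPM of Krt1 after croton oil, the opposite order, and 13.1 against 74.8 CPM after microneedles. Krtdap, a secreted protein of differentiating keratinocytes, had medians of 1265 against 280 CPM and 483 against 24.4 CPM, higher in cycling cells, while its sums were 1635 against 1705 CPM and 1954 against 972 CPM. In the list of injury keratins and alarmins 2 of 11 were 2-fold higher and 2 lower after croton oil, and 1 of 12 higher and 3 lower after microneedles, with medians of -0.10 and -0.47. Without the LC-bearing cells 4 of 11 were lower and none higher after croton oil, and 9 of 14 lower and 1 higher after microneedles, with medians of -0.67 and -1.18. Of all genes compared there, 3.82% and 9.93% were lower. Sums of such genes can rest on few cells. Among those microneedle cells with at least 10000 UMIs, Krt17 UMIs were in 3 of 15 non-cycling cells, at up to 14555 CPM. The Krt6a median there was 1400 CPM in cycling cells and 0 in non-cycling cells.

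The wound keratins were present in cycling cells of both treatments. Krt6a was at 1664 CPM in cycling and 1172 CPM in non-cycling cells after croton oil, and at 3657 and 1837 CPM after microneedles, against 30.5 CPM in untreated non-cycling cells, of which 1 cell held 90.4%. Sums hide how this was distributed, since after microneedles 1 cell held 53.6% of the UMIs of non-cycling cells. The cycling sum there rested largely on 6 cells scoring 200 to 400, at 9160 CPM. Cycling microneedle cells scoring 400 to 1000 were at 1436 CPM and those above at 1220 CPM, both under the 1837 CPM of non-cycling cells. Krt6a and Krt6b are close copies of each other, so reads may have been lost or split between them. Among cells with at least 10000 UMIs, the median Krt6a level was 1224 CPM in cycling and 258 CPM in non-cycling cells after croton oil, 988 CPM and 0 after microneedles, and 0 in the untreated cells. Krt6a UMIs were in 94.4% of cycling croton oil cells and in 82.1% of cycling microneedle cells (median depths 58342 and 52986), against 4.86% and 3.87% of the remaining cells of those libraries (12466 and 16501.5). In cells of the lower Cd74 range the medians were 849 and 219 CPM after croton oil and 1400 CPM and 0 after microneedles. Krt16 medians were at 406 and 74.0 CPM after croton oil and 71.0 CPM and 0 after microneedles, although its sums were 1674 against 2309 CPM and 2617 against 2713 CPM. In the lower Cd74 range the Krt16 medians were 247 and 30.4 CPM after croton oil and 90.2 and 71.8 CPM after microneedles. Krt16 UMIs were in 84.0% of cycling croton oil and 78.6% of cycling microneedle cells. They were also in 22.5% and 8.78% of the remaining cells of those libraries, at the median depths given for Krt6a. Over all cells the sum and the median pointed in opposite directions for Krt16. The highest Krt16 level in a cell was 23525 CPM in non-cycling and 18345 CPM in cycling cells after croton oil. After microneedles these were 22720 and 19498 CPM, all among cells with at least 10000 UMIs.

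Of the EGFR ligand list 0 of 5 compared genes were 2-fold apart after croton oil and 2 of 6 were higher after microneedles, with medians of 0.02 and 0.29. Nrg1, a ligand of ERBB receptors, was at 129 against 75.5 CPM after croton oil and 295 against 130 CPM after microneedles, with 23.2 CPM in untreated cells. Areg, an EGFR ligand, was at 36.9 and 33.4 CPM after croton oil and at 83.5 and 6.39 CPM after microneedles, there from 9 cycling and 2 non-cycling cells. Glycolysis and hypoxia genes had medians of 0.16 and 0.33 with none of 13 compared 2-fold apart in either library, and interferon response genes had 3 compared members and none 2-fold apart. In the lower Cd74 range the glycolysis and hypoxia medians were 0.09 and 0.70, with 1 of 12 2-fold lower after microneedles. Immediate early genes, which respond to tissue dissociation, had -0.01 and -0.61, with 2 of 14 2-fold lower after microneedles and 4 without the LC-bearing cells. Interferon genes without those cells had 2 of 3 higher after microneedles. Of the keratinocyte cytokines 2 of 9 were 2-fold lower after croton oil and 5 of 11 lower and 1 higher after microneedles, with medians of -0.21 and -0.83. In the lower Cd74 range 2 of 6 and 6 of 6 were lower, with medians of -0.31 and -2.52. Of all genes compared there, 3.82% and 9.93% were lower. The microneedle values come from 23 cycling and 18 non-cycling cells, so a sum can rest on 1 cell. Cxcl14, a chemokine of resting epithelium, had log2 changes of -2.58 and -0.83. The hair follicle list had opposite medians, -1.17 after croton oil with 4 of 7 lower and 1.88 after microneedles with 6 of 9 higher. In the lower Cd74 range these were -1.34 with 4 of 7 lower and 0.84 with 3 of 8 higher. With cells from 400 CPM against cells under 100 CPM the microneedle median was -0.68.

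Cycling cells of the 2 treated libraries were then compared with each other. The cells of both sides had passed the same score, so the cell cycle genes of this contrast are a description conditioned on that choice. Of 4191 genes, 62 were at least 2-fold higher after croton oil (1.48%) and 180 at least 2-fold higher after microneedles (4.29%), and 74 (1.83%) and 171 (4.23%) without the LC-bearing cells. This split depended on the scaling, since it was 156 and 77 with TMM factors and 140 and 84 with median-of-ratios size factors. TMM moved the median of all genes from -0.09 to 0.25. Of the cell cycle lists 0 of 35 G2/M, 0 of 24 S phase and 0 of 13 histone members were 2-fold apart, with medians of -0.02, -0.03 and -0.01, and nothing is read from this since the score chose both sides.

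Gpr15lg, which encodes a secreted ligand of the lymphocyte receptor GPR15 (chr14:36824097-36835979), separated the treatments in single cells. It was at 1972 CPM (1942 to 2002) in cycling cells after croton oil and 207 CPM (184 to 233) after microneedles, a log2 difference of 3.22. In the non-cycling cells it was at 1542 and 67.9 CPM, and in untreated non-cycling cells at 4.04 CPM. Within the croton oil library its log2 change between the states was 0.35, and within the microneedle library 1.54. Median cells of at least 10000 UMIs had 1823 CPM in cycling and 932 CPM in non-cycling croton oil cells, 17.6 CPM and 0 in microneedle cells, and 0 in untreated cells. The interquartile ranges of the cycling cells did not overlap between the treatments, 841 to 2880 CPM against 0 to 139 CPM. In the lower Cd74 range the medians of cycling cells were 1246 and 61 CPM, and the log2 difference was 2.59. UMIs of Gpr15lg were in 95.8% of cycling croton oil and 57.1% of cycling microneedle cells, against 10.2% and 4.91% of the remaining cells of those libraries, at the median depths given for Krt6a. Its level in those remaining cells was 24.5 and 4.37 CPM.

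**Figure D5:**
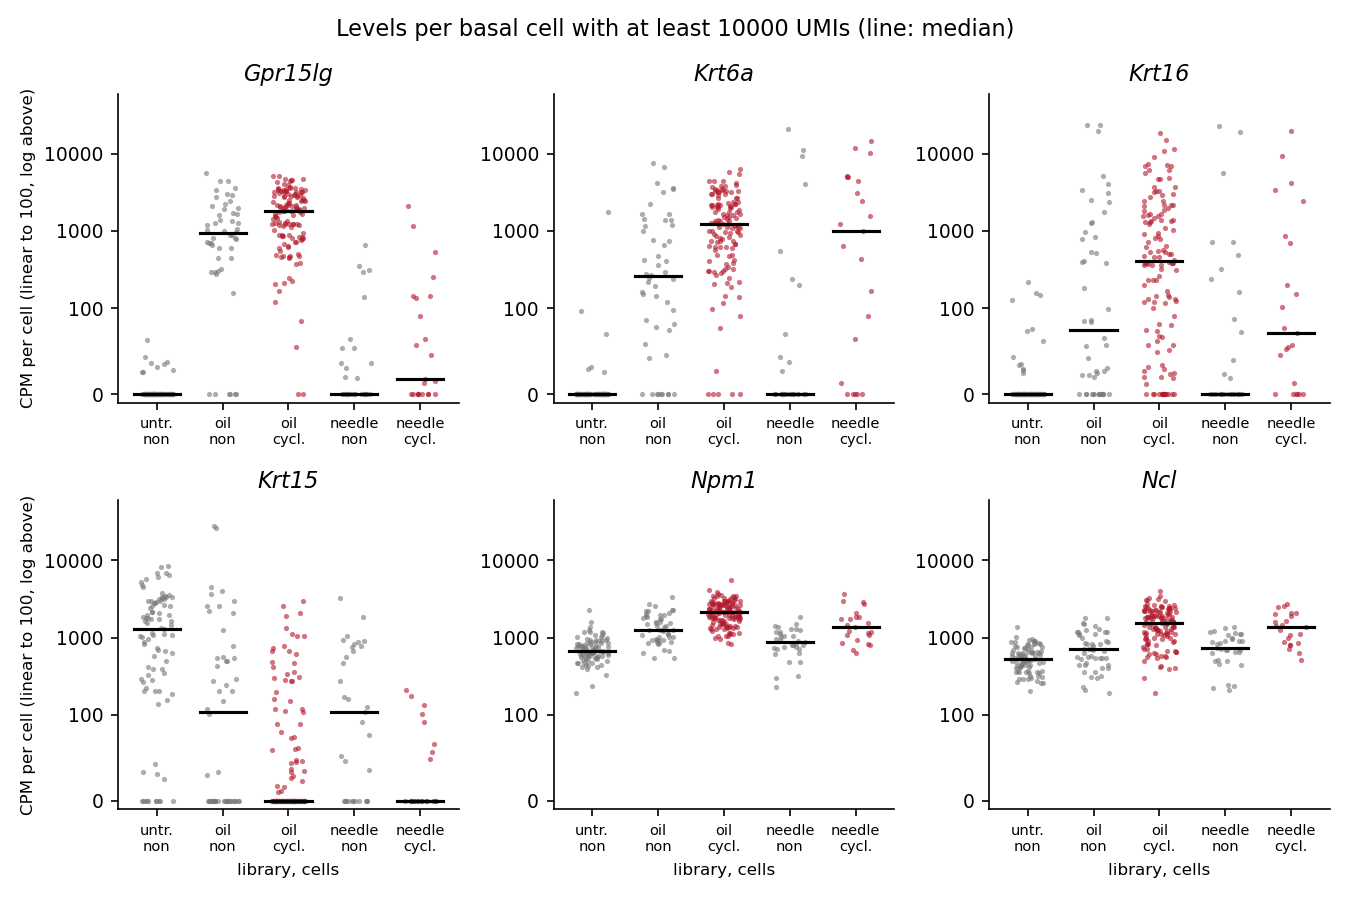
CPM per basal cell (y axes, linear to 100 and logarithmic above) of 6 genes in cells with at least 10000 UMIs, by library and state (x axes; untr., untreated; oil, croton oil; needle, microneedle; cycl., cycling in red; non, non-cycling in grey). Lines are medians, and Gpr15lg is high in both states after croton oil, at 1823 and 932 CPM, while the Krt15 median is 0 in the cycling cells.

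The other genes higher in croton oil cycling cells included further keratinocyte products. Serpinb3b, a protease inhibitor, was at 95.9 against 14.4 CPM, Sprr2d, a cornified envelope precursor, at 286 against 39.6 CPM, and Krt1, which the rule used, at 621 against 91.4 CPM. The Krt1 difference turned to -0.27 with cells weighted equally. S100a8, an alarmin subunit, was at 965 against 90.0 CPM, and its partner S100a9 at 1224 against 301 CPM. Among cycling cells with at least 10000 UMIs the medians were 31.6 CPM against 0 for S100a8 and 72.7 CPM against 0 for S100a9. Single croton oil cells held up to 17547 and 20615 CPM of these genes. S100a8 was at 305 CPM in the remaining cells after croton oil and at 496 CPM after microneedles, where it exceeded the basal level. Slpi, a secreted protease inhibitor, was at 168 against 16.6 CPM, but 1 cell held 64.4% of the croton oil UMIs, and without the top cells the log2 difference was 1.92. Tnfrsf9, Basp1, C1qa and Bcl2a1b completed the 10 highest, and all 4 were higher in the remaining cells of the croton oil library, for example Basp1 at 889 against 104 CPM. Without the LC-bearing cells C1qa was at 0.39.

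For 7 of the 10 genes with the largest difference in favour of microneedle cycling cells, 1 cell held over 50% of the UMIs there. In the sums of the 28 cells, 1 cell held 98.4% of the UMIs of Klk7, 96.2% of Klk6, 91.8% of Sprr1a, 90.8% of Fst and 89.7% of Defb6. Without the top cell of each group the log2 differences of these 5 lay between -0.83 and -0.08, where they had been between -5.12 and -2.75. The top cell held 62.9% for Krt79 and 52.3% for Crabp2, a retinoic acid carrier, and these had -2.65 and -2.22 without the top cells. Genes spread more widely were Krt17, the wound and follicle keratin, at 723 against 96.4 CPM with 34.1% in 1 cell, and Nebl at 56.9 against 3.25 CPM. Without the top cells these had -2.56 and -2.55, but Krt17 was at 0.55 with cells from 400 CPM alone. The Krt17 medians of cycling cells with at least 10000 UMIs were close, 28.3 CPM after microneedles and 18.8 CPM after croton oil. Hair follicle genes were 2-fold higher after microneedles in 7 of 9 compared, with a median of -2.73 for croton oil against microneedle, and with cells at or above 400 CPM alone that median was 0.31. Which skin compartment these few cells came from was not tested.

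Markers of other cell types ranged from 0 to the level of the LC markers in the cycling cells. The summed fibroblast markers were at 0 after croton oil and 0.72 CPM after microneedles, the Merkel cell markers at 0.723 CPM and 0, and the endothelial markers at 4.58 and 18.0 CPM. Melanocyte markers, which the rule limited, summed to 13.5 and 40.3 CPM, macrophage markers to 145 and 24.5 CPM, neutrophil markers to 18.4 and 12.2 CPM, and T cell markers to 78.1 and 65.5 CPM. The summed LC markers were at 4622 CPM in cycling and 6922 CPM in non-cycling cells after croton oil and at 4054 and 9272 CPM after microneedles, against 48708 and 46129 CPM in the remaining cells. Sebaceous markers were at 173 CPM in cycling and 550 CPM in non-cycling croton oil cells, and at 167 and 119.7 CPM after microneedles. Their part in the genes lower in cycling cells was not tested.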

How the data were processed

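The authors deposited UMI counts, for which the file headers name Cell Ranger 8.0.0 and the submitters' processing notes name GRCm39. They were whole numbers, not normalized. Gene positions are from GENCODE M39 (GRCm39) and promoters from RefSeq (GRCm38.p6). The cells, the gene lists and the marker lists were chosen with earlier results of these data known. Counts of each group of cells were summed within a library, scaled to CPM and compared as log2 of the ratio after adding 5 CPM, without a test, because each group is 1 library. Levels carry exact 95% Poisson intervals and shares exact 95% binomial (Clopper-Pearson) ones. Named genes were the 12 with the highest and the 12 with the lowest change in both treated libraries, ranked by the change nearer 0, the 10 highest and 10 lowest between the treatments' cycling cells, the score genes and list members; 1 gene that this rule names is not reported here. The contrast was tested on simulated data. Doublets were removed as an alternative with Scrublet (scanpy 1.11.5) at 0.8% per 1000 cells, since its own threshold marked 1, 0 and 0 cells. TMM factors came from edgeR 4.0.16. Further alternatives were median-of-ratios size factors, other level minimums and added constants, cells weighted equally, score thresholds of 100 and 400 CPM, cells thinned to 10000 UMIs, and stricter limits on basal keratins, Cd74 and mitochondrial share. Python 3.11.15, numpy 2.4.6, pandas 2.3.3 and scipy 1.17.1 were used.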

Additional observations from a re-analysis of the deposited data

Results flagged for a closer look

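After croton oil and after microneedles, 3 genes were at least 2-fold apart between cycling and non-cycling cells in opposite directions, and the difference between the libraries was not tested. Sox9, a factor of hair follicle stem cells, had log2 changes of -2.11 after croton oil and 1.88 after microneedles, and 1 cell held 59.6% of its UMIs in non-cycling croton oil cells. Krt79, a keratin of the follicle opening, had -5.32 and 3.19, and 1 cell held 95.4% of the UMIs of non-cycling croton oil cells and 62.9% of those of cycling microneedle cells. Cst6, a cystatin of the upper follicle and granular layer, had -1.27 and 1.41, with 30.9% and 50.6% in the top cell of those groups. Without the top cell of each group the values were -1.18 and 2.00 for Sox9, -1.54 and 2.65 for Krt79, and -1.17 and 1.11 for Cst6.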

How the results depend on the processing

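No paired analysis was possible because each condition is 1 library and no sample has a partner. The exclusion of cells with 0.1% or more Cd74 and of the top cell of each group, and a minimum of 10000 UMIs, were chosen after seeing the data. The share of cycling cells was 9.38% in the untreated and 78.3% in the croton oil library at a threshold of 100 CPM, 56.2% in the croton oil library at 400 CPM, and 0% in the untreated and 56.1% in the microneedle library with Cd74 under 0.1%. With no minimum level the genes at least 2-fold higher and lower were 261 and 298 after croton oil, 803 and 699 after microneedles, 207 and 64 in both, and 173 and 657 between the treatments' cycling cells. With a minimum of 100 CPM they were 47 and 45, 144 and 156, 39 and 11, and 38 and 76. With 20 CPM added, 51 were lower after croton oil, 187 higher and 176 lower after microneedles, 12 lower in both and 101 lower between treatments. With cells weighted equally, 445 were lower after microneedles and 406 between treatments. With cells from 400 CPM against cells under 100 CPM, 145 were lower after croton oil, 38 in both and 356 between treatments. With Cd74 under 0.1%, 147 were lower after croton oil, 551 higher and 428 lower after microneedles, and 38 lower in both. Between treatments, TMM gave 156 higher and 77 lower and size factors 140 and 84. Directions turned for Efnb2 after microneedles without the top cells (0.15), for Cacnb2 after croton oil with Cd74 under 0.1% (0.70) and for Krt1 between treatments with cells weighted equally (-0.27). With cells from 400 CPM, the differences between treatments were 0.58 for Defb6, 0.19 for Sprr1a, 0.55 for Krt17 and 0.062 for Fst, and the hair follicle list had medians of -0.68 after microneedles (1.88 with all cells) and 0.31 between treatments (-2.73 with all cells). The cause was not tested, other than that the minimum level sets how many genes are compared. The 81 remaining alternatives of the shares and counts stayed within the binomial interval or within 1.5 times. Of the alternatives of single genes and list medians, 1406 stayed within the width of the counting interval (lists, within 0.25) and 281 moved further, and 45 and 29 of these changed sign from a value under 2-fold. With 1 library per condition and 28 cycling microneedle cells, sums for that group can rest on 1 cell.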
